A study of Mus musculus with 64 samples.

Results

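The genes of fatty acid synthesis, elongation and desaturation were followed in heterozygous knock-in (KI) mice, Cyfip2+/R87C, in which Arg87 of the Cyfip2 protein is replaced by Cys, and in wild-type (WT) mice of the same litters. The strain was C57BL/6N throughout. The members were chosen by name: Acly, Acaca, Fasn, Scd1, Scd2, Fads1, Fads2, Elovl1, Elovl5 and Elovl6. All 10 were found, of 18432 genes in the deposited table, and all 10 passed the filter on low values in each comparison. Frontal cortex and hippocampus were sampled at postnatal week (PWK) 1, 7, 14 and 28, with 4 KI and 4 WT mice at each age, so that 16 groups of 4 libraries made up 64 libraries, and n counts mice. Every KI mouse kept a WT copy of Cyfip2, the change was present in every cell type, and no group was treated with an agent. The study uses these mice as a model of West syndrome, a severe infantile epilepsy, and asked how gene expression in the brain changes as they age.

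Cells build fatty acids in the cytosol from acetyl-CoA, which ATP citrate lyase (Acly) makes from citrate, acetyl-CoA carboxylase (Acaca) turns into malonyl-CoA, and fatty acid synthase (Fasn) joins into palmitate. Desaturases then place double bonds, the Scd enzymes in saturated fatty acids and the Fads enzymes in polyunsaturated ones, and the Elovl enzymes lengthen the chain. In the brain the products enter the membranes of neurons, the lipids of astrocytes and the myelin that oligodendrocytes lay down after birth, and transcription of many of these genes is under control of the sterol regulatory element-binding proteins.

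All levels below are the authors' normalized counts, and depth was estimated at 25 to 37.7 M reads per library. Of the identity markers, Prox1, Dsp, C1ql2 and Zbtb20 were higher in every hippocampal than in every cortical library of the same age, and Rorb, Tbr1 and Cux2 were higher in every cortical one, while Fezf2 overlapped between regions at all 4 ages. Cyfip2, whose codon the knock-in changes, was called between genotypes only in cortex at PWK 28 (log2 fold change -0.44 ± 0.09 SE, adjusted p = 0.00580 in limma's test), and in the other 7 genotype comparisons this p lay between 0.0539 and 0.908. In cortex at PWK 14 it was also called without KI replicate 3 (adjusted p = 0.0186) and when all 64 libraries shared 1 fit (0.00839). The hippocampal library of KI replicate 1 at PWK 14 stood apart from the other 3 of its group, with a summed level of 19612 normalized counts over 6 microglial markers against 7227 to 10142, and of 325641 over 7 astrocyte markers against 229885 to 239780. In WT cortex at PWK 28, replicate 2 held 21121 normalized counts of 3 choroid plexus markers, where the other 3 libraries held 278 to 749. Values without these libraries are given beside the results that they change. These are whole tissue pieces, in which fewer cells of a type and less RNA per cell cannot be told apart.

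In the GRCm38 build, Acly (chr11:100476353-100528000), Acaca (chr11:84129672-84401651) and Fasn (chr11:120805846-120824547) lie on chromosome 11, and Scd1 (chr19:44394455-44407879), Scd2 (chr19:44293674-44306864), Fads1 (chr19:10182888-10196877) and Fads2 (chr19:10062765-10101746) on chromosome 19. Elovl1 lies at chr4:118428093-118432953, Elovl5 at chr9:77917364-77984519 and Elovl6 at chr3:129532355-129638495. Scd2, the main stearoyl-CoA desaturase of the brain, was the most abundant member. Per kb of its longest transcript it averaged 8648 normalized counts over the 64 libraries, and next came Fads2 with 1979, Fads1 with 1708, Acly with 1298, Fasn with 1155 and Scd1 with 1103 on the same scale. Elovl5 averaged 821, Acaca 422, Elovl6 371 and Elovl1 220 normalized counts per kb. The order of several members depended on the length used. Acaca stood above Elovl6 and Elovl1 by its longest transcript and only above Elovl1 by all of its exons. Per kb of all exons, Scd1 (1089.5), Acly (1088.3) and Fasn (1060.4) came in that order. Scd2 varied little among the 16 groups, with means between 43431 ± 1318 (SD, n = 4) normalized counts in WT hippocampus at PWK 28 and 55374 ± 1775 in KI hippocampus at PWK 14, a ratio of 1.27. Among WT groups alone, its highest mean was 48293 ± 1275 in cortex at PWK 1. The ratio of the highest to the lowest group mean was 2.83 for Acaca, 2.68 for Fads2, 2.64 for Elovl6, 2.28 for Fasn, 2.18 for Elovl1, 2.01 for Scd1, 1.87 for Acly, 1.42 for Elovl5 and 1.25 for Fads1. When the 16 groups were put in order of their means, between 12 and 15 of the 15 neighbouring pairs overlapped in their libraries for each member, so the fine order of groups was not resolved.

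**Figure D1:**
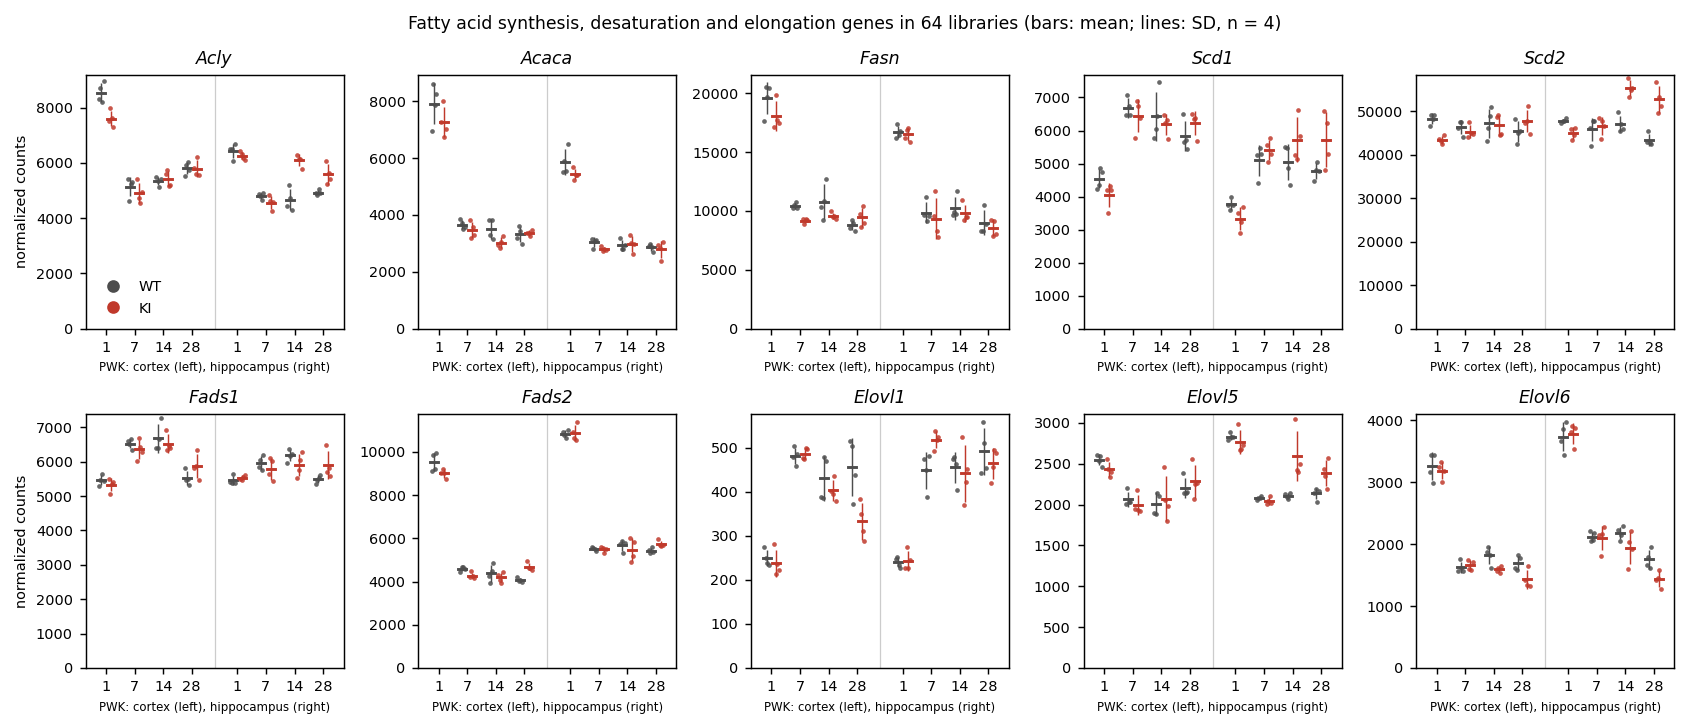
Normalized counts of the 10 members in each library (points), with the mean (bar) and SD (line) of 4 libraries, for WT (grey) and KI (red) at PWK 1, 7, 14 and 28 in cortex (left of each panel) and hippocampus (right). The PWK 1 libraries of Acly, Acaca, Fasn, Fads2 and Elovl6 lie above the WT libraries of the later ages in the same region, those of Scd1 and Elovl1 lie below them, and Scd2 stays between 42080 and 57702.

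Promoter sequences are shown for Acly and Elovl5, which were both higher in KI hippocampus at PWK 14, and for Fasn, a classical target of the sterol regulatory element-binding proteins, which was not called there. RefSeq promoter windows (build GRCm38.p6, 250 bases before to 50 after the start) matched 7 of the 10 members, with none for Scd1, Scd2 and Fads1. The 250 bases before the start are printed 5′ to 3′ on the strand of the gene, and capitals mark every match on either strand to the GC box (GGGCGG), the CCAAT box (CCAAT) or the E-box (CACGTG).
Acly, minus strand, chr11:100528001-100528250: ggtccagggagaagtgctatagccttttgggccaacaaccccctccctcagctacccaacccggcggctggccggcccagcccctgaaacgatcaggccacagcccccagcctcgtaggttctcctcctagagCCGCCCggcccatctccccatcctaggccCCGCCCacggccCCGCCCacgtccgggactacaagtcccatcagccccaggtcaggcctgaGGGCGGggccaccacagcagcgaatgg
Elovl5, plus strand, chr9:77917115-77917364: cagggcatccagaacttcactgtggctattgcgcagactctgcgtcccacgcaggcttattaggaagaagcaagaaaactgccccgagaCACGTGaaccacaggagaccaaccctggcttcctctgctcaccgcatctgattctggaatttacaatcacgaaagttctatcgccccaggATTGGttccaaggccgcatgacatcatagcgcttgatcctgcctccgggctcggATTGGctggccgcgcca
Fasn, minus strand, chr11:120824548-120824797: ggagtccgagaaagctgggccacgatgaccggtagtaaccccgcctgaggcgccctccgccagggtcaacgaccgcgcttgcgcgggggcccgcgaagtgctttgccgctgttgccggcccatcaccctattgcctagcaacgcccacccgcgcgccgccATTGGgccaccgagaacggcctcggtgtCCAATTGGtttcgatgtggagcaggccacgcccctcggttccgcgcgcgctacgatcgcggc
The Acly window held 4 GC boxes, beginning 117, 88, 76 and 27 bases before the start, and a CCAAT box 37 bases after it. The Elovl5 window held an E-box that began 161 bases before the start and 2 CCAAT boxes on the opposite strand, at 71 and 17 bases. Fasn held 3 CCAAT boxes, at 90, 62 and 59 bases before the start, of which the last 2 overlapped. Among the others, the Fads2 window held 1 GC box, the 2 Elovl1 windows held 5 and 2 GC boxes and a CCAAT box that overlapped 1 of them, and the windows of Acaca and Elovl6 held none of these. The Acaca window (chr11:84195188-84195487) lay inside the span of the gene given above and did not reach its start, so it says nothing of bases there. Among all 32851 promoters of the table, a GC box occurred in 35.7%, a CCAAT box in 37.4% and an E-box in 7.15%. The letters TCACNCCAC of a sterol regulatory element occurred in 1.24% of all promoters and in none of the 8 member windows, which says only that these letters are not in these bases.

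The change from PWK 1 to PWK 7 in WT mice, which spans the growth of the brain and most myelin formation, reached a log2 fold change of -1.11 in these genes. The largest genotype difference of a member was -0.45, that of Elovl1 in cortex at PWK 28. In cortex 9 of the 10 members were called at an adjusted p under 0.05 in limma's test, where 65.3% of all genes tested were called. Of these, 3 rose, against 32.5% of all genes, and 6 fell, against 32.7%. In hippocampus the same 9 members were called, each in the same direction, where 61.3% of all genes were called, 30.9% higher and 30.4% lower. The median log2 fold change of the members was -0.52 in cortex and -0.43 in hippocampus, beside 0.01 for all genes in each of them. Both regions were taken from each mouse, so these are not separate sets of animals.

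All 3 genes of palmitate synthesis fell between PWK 1 and PWK 7. Acaca, which makes malonyl-CoA, was at 6958, 8594, 7859 and 8261 normalized counts in WT cortex at PWK 1 and at 3840, 3721, 3510 and 3558 at PWK 7. No PWK 7 library reached the lowest PWK 1 library, and Acaca fell by 1.11 ± 0.06 (SE) on the log2 scale in cortex (adjusted p = 1.88e-08) and by 0.94 ± 0.06 in hippocampus (adjusted p = 1.10e-07). Fasn, the synthase itself, went from 19565 ± 1355 (SD, n = 4) to 10432 ± 245 normalized counts in cortex and from 16672 ± 513 to 9860 ± 890 in hippocampus. Acly, the source of cytosolic acetyl-CoA, fell less, by 0.74 on the log2 scale in cortex and by 0.42 in hippocampus, again with no overlap between the ages.

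The desaturases did not move together. Fads2, which takes the first desaturation step on polyunsaturated precursors, fell by 1.06 ± 0.04 (SE) on the log2 scale in cortex and by 0.98 ± 0.03 in hippocampus. Its cortical libraries held 9119, 9839, 9220 and 9936 normalized counts at PWK 1 and 4435, 4651, 4678 and 4556 at PWK 7, so that no library of the older mice came near the younger level. Fads1, which acts after Fads2 and lies close to it on chromosome 19, rose instead, by a log2 fold change of 0.26 ± 0.04 in cortex and 0.13 ± 0.04 in hippocampus. The hippocampal call of Fads1 was lost when each library was scaled to its total (log2 fold change 0.07, adjusted p = 0.111). Scd1 rose in cortex from 4542 ± 296 (SD, n = 4) to 6690 ± 296 normalized counts and in hippocampus from 3767 ± 161 to 5100 ± 470, with no overlap in either. Scd2, its neighbour on chromosome 19, was not called, with a log2 fold change of -0.06 in each region and 95% confidence intervals of -0.16 to 0.04 in both regions. With each library scaled to its total, Scd2 was called lower at PWK 7 in hippocampus (-0.12, adjusted p = 0.0402).

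Among the elongases, Elovl6, which extends palmitate to stearate, fell by 1.00 ± 0.06 (SE) on the log2 scale in cortex and by 0.81 ± 0.05 in hippocampus. Elovl5, which extends polyunsaturated fatty acids, fell by 0.30 ± 0.05 in cortex and by 0.44 ± 0.03 in hippocampus. Elovl1, which makes the saturated very long chains found in sphingolipids, rose. In WT cortex it held 273, 250, 239 and 233 normalized counts at PWK 1 and 480, 503, 459 and 487 at PWK 7, with no overlap, for a log2 fold change of 0.95 ± 0.08 (adjusted p = 4.62e-07), and its hippocampal value was 0.89 ± 0.09 (adjusted p = 4.42e-06). Elovl1 overlaps Cdc20 on the opposite strand, which averaged 44.4 normalized counts over all libraries where Elovl1 averaged 399. Over the same interval the summed level of 10 oligodendrocyte markers went from between 7574 and 17410 to between 158765 and 201749 normalized counts in WT cortex and from between 5386 and 10932 to between 165117 and 214526 in WT hippocampus. Its part in the change of the members was not tested.

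**Figure D2:**
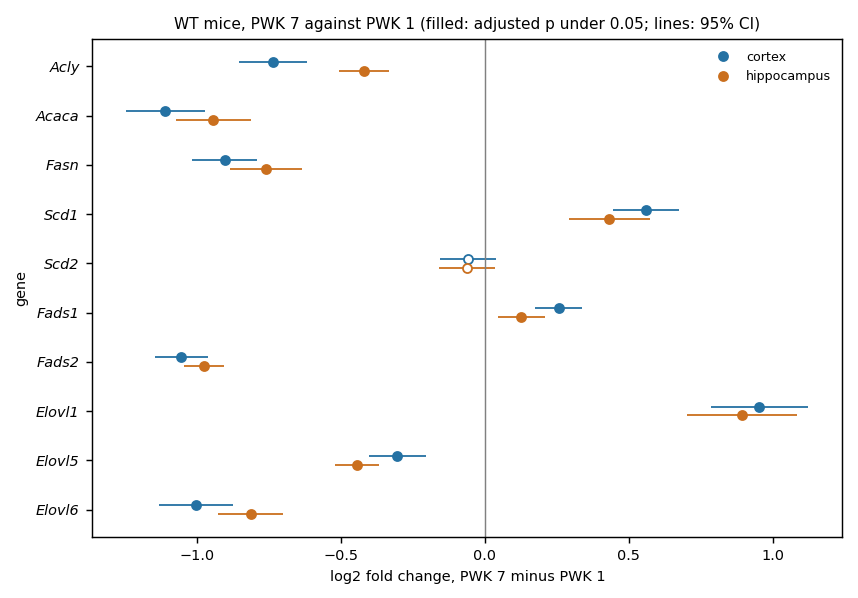
Log2 fold change of each member from PWK 1 to PWK 7 in WT mice (points, with 95% confidence intervals, n = 4 libraries per group) in cortex (blue) and hippocampus (orange), filled where the adjusted p was under 0.05. Acly, Acaca, Fasn, Fads2, Elovl5 and Elovl6 lie left of 0, Scd1, Fads1 and Elovl1 right of 0, and Scd2 at -0.06 in both regions.

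Later in WT life the changes were small. Between PWK 7 and PWK 28 in cortex, 5 of the 10 members were called, where 22.2% of all genes were called, 10.9% higher and 11.4% lower. Fasn fell by 0.25 ± 0.04 (SE) on the log2 scale (adjusted p = 0.00122), Fads1 by 0.24 ± 0.04 (adjusted p = 0.00118), Fads2 by 0.17 ± 0.04 (adjusted p = 0.00651) and Scd1 by 0.20 ± 0.05 (adjusted p = 0.0215), while Acly rose by 0.18 ± 0.05 (adjusted p = 0.0297). The calls of Acly and Scd1 were not stable, and that of Acly was lost with the replicate block (adjusted p = 0.0552) and that of Scd1 in the fit of all 64 libraries (0.0990). That of Acly was also lost without PWK 28 replicate 2, 3 or 4 or PWK 7 replicate 2 or 3, and that of Scd1 without PWK 28 replicate 3 or 4 or PWK 7 replicate 2 or 3, with adjusted p-values between 0.0533 and 0.0816 and between 0.0539 and 0.0625. Without PWK 28 replicate 2, the library rich in choroid plexus markers, Acaca was called lower (-0.19, adjusted p = 0.0339). In hippocampus 1 of 10 members was called, where 14.7% of all genes were called, 6.35% higher and 8.38% lower. It was Elovl6, which went from 2124 ± 80.1 (SD, n = 4) to 1754 ± 149 normalized counts with no overlap (log2 fold change -0.28 ± 0.06 SE, adjusted p = 0.0126). Scd1 joined it without PWK 7 replicate 2 (adjusted p = 0.0459) and Fads1 without PWK 7 replicate 3 (adjusted p = 0.0440).

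Between WT regions, Acaca and Scd1 were lower and Fads2 was higher in hippocampus at all 4 ages. At PWK 1, 7 of 10 members differed between WT hippocampus and cortex, where 34.7% of all genes were called, with 3 higher in hippocampus (16.1% of all genes) and 4 lower (18.6%). At PWK 7 it was 5 of 10 members, beside 40.8% of all genes, with 2 higher (20.4%) and 3 lower (20.4%). At PWK 14 it was again 5, beside 34.6%, with 2 higher (17%) and 3 lower (17.6%), and at PWK 28 it was 4, beside 37.8%, with 1 higher (18.8%) and 3 lower (19%). At PWK 7 and 28 the share of members called lay near that of all genes. In order of age, the difference of Fads2 was 0.19 ± 0.04, 0.27 ± 0.03, 0.38 ± 0.06 and 0.42 ± 0.04 (SE) on the log2 scale, and its libraries did not overlap between regions at any age. At PWK 28, Fads2 held 5443, 5310, 5592 and 5379 normalized counts in WT hippocampus and 4205, 4001, 4056 and 3984 in WT cortex. Whether the regional difference changed with age was not tested.

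Scd1 was lower in hippocampus by 0.27, 0.40, 0.35 and 0.28 on the log2 scale at PWK 1, 7, 14 and 28, and Acaca by 0.43, 0.27, 0.26 and 0.20. Acaca overlapped between regions at PWK 14 and 28, and its PWK 28 call was lost without cortex replicate 2 (adjusted p = 0.0511), cortex replicate 3 (0.0556) or hippocampus replicate 4 (0.0599). Acly was lower in hippocampus at PWK 1, 14 and 28, by 0.41, 0.20 and 0.24 on the log2 scale. Its PWK 14 call was lost with each library scaled to its total (adjusted p = 0.0970) and without cortex replicate 1 (0.0621), hippocampus replicate 1 (0.0722) or hippocampus replicate 4 (0.0604). At PWK 7 the Acly difference was -0.09 and not called, though it was called without cortex replicate 2 (adjusted p = 0.0118). Fasn was lower only at PWK 1 (log2 fold change -0.23 ± 0.05 SE, adjusted p = 0.00577), and at PWK 7 it was called without hippocampus replicate 2 (adjusted p = 0.00821).

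Elovl6 was higher in hippocampus at PWK 1, 7 and 14, by a log2 fold change of 0.20, 0.39 and 0.26, and was not called at PWK 28 (0.05, 95% confidence interval -0.10 to 0.20). Its PWK 1 call was lost without cortex replicate 3 (adjusted p = 0.0675), hippocampus replicate 2 (0.0684) or hippocampus replicate 4 (0.0700). Elovl5 was higher at PWK 1 alone (0.15 ± 0.04 SE, adjusted p = 0.00953), and this call was lost when all 64 libraries shared 1 fit (adjusted p = 0.0617). Fads1 was lower at PWK 7 (-0.13 ± 0.04 SE, adjusted p = 0.0121). Neither Scd2 nor Elovl1 was called between regions at any age with the deposited scaling. At PWK 1, with each library scaled to its total, Scd2 and Fads1 came out higher in hippocampus, by 0.09 (adjusted p = 0.0290) and 0.10 (0.0409) on the log2 scale, where the deposited scaling gave -0.012 and -0.0022.

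**Figure D3:**
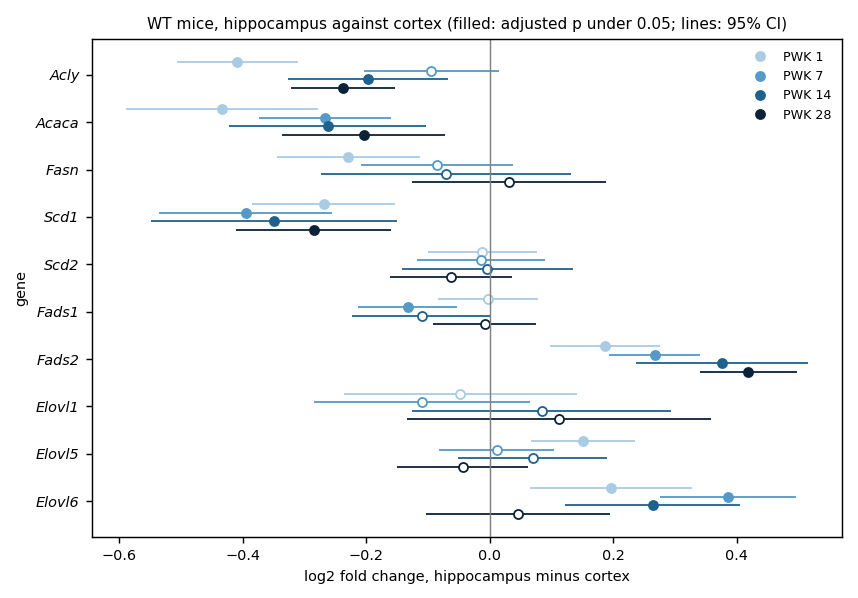
Log2 fold change of hippocampus against cortex in WT mice for each member at the 4 ages (light to dark blue, with 95% confidence intervals, n = 4 libraries per group), filled where the adjusted p was under 0.05. Scd1 and Acaca lie left of 0 and Fads2 right of 0 at all ages, and Fads2 goes from 0.19 at PWK 1 to 0.42 at PWK 28.

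At the young ages no difference between genotypes passed the test in these genes, since limma called no member at PWK 1 or PWK 7 in either region. In cortex at PWK 1, 0.00546% of all genes were called, and 2 members did not overlap between genotypes, against 3.15% of all genes. In cortex at PWK 7 these shares were 0.00545% and 4.62%, with 1 member not overlapping. In hippocampus they were 0.0109% and 3.26% at PWK 1, and 0.0218% and 3.87% at PWK 7, with 1 member not overlapping at each age. At an unadjusted p under 0.05, 3 and 2 members passed in cortex at PWK 1 and 7, and 2 and 2 in hippocampus, where 5.27%, 8.05%, 5.46% and 6.22% of all genes passed.

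In cortex at PWK 1 all 10 log2 fold changes were below 0, with a median of -0.10 beside 0.0017 for all genes. Acly held 8317, 8704, 8202 and 8966 normalized counts in WT and 7524, 7980, 7617 and 7308 in KI libraries, and Scd2 held 46521, 49250, 48202 and 49197 in WT and 43591, 43254, 42427 and 44549 in KI. Every KI library of both genes lay below every WT library, by 0.17 ± 0.05 and 0.15 ± 0.04 (SE) on the log2 scale, but the adjusted p was 0.908 for each. Scd2 showed the same lack of overlap in hippocampus at PWK 1 (log2 fold change -0.09 ± 0.03 SE, adjusted p = 0.879). There the KI means of Fads1, Fads2, Elovl1 and Elovl6 lay above the WT means, and those of the other members below. Within a region the members are measured in the same libraries, so their directions are not separate observations. At PWK 7, Fasn was lower in all KI than in all WT cortical libraries, at 9173 ± 170 against 10432 ± 245 (SD, n = 4) normalized counts (log2 fold change -0.19 ± 0.03 SE, adjusted p = 0.133). Elovl1 was higher in all KI hippocampal libraries, at 518 ± 19.2 against 448 ± 43.1 (log2 fold change 0.21 ± 0.08 SE, adjusted p = 0.729).

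In KI cortex the first calls came at PWK 28. At PWK 14 no member was called, where 5.18% of all genes were called, and no member was without overlap, against 14.2% of all genes. At an unadjusted p under 0.05, 2 members passed, beside 20.6% of all genes. The largest differences there were those of Acaca (-0.21 on the log2 scale, 3024 ± 180 against 3514 ± 347 normalized counts, SD, n = 4) and Elovl6 (-0.19, 1590 ± 48.1 against 1819 ± 147), and Acaca was called when all 64 libraries shared 1 fit (adjusted p = 0.0436). At PWK 28, 1 member rose, against 12.2% of all genes, and 1 fell, against 10%, where 22.2% of all genes were called in either direction. These were Fads2 and Elovl1, and 1 member was without overlap, against 25.8% of all genes.

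Fads2 held 4205, 4001, 4056 and 3984 normalized counts in WT cortex at PWK 28 and 4930, 4645, 4626 and 4533 in KI cortex. All KI libraries lay above all WT libraries, and the log2 fold change was 0.20 (95% confidence interval 0.10 to 0.31, adjusted p = 0.0150). The call was kept in all 6 other settings and without any 1 library, with adjusted p-values up to 0.0493, and without WT replicate 2 it stood at 0.0437 with a log2 fold change of 0.20. Elovl1 held 515, 503, 372 and 437 normalized counts in WT and 385, 349, 310 and 289 in KI cortex. The groups overlapped, since the highest KI library lay above the lowest WT library, and the log2 fold change was -0.45 (95% confidence interval -0.74 to -0.16, adjusted p = 0.0309). The Elovl1 call was lost without KI replicate 3 (adjusted p = 0.0774) or 4 (0.0738) or WT replicate 1 (0.0905), 2 (0.0880) or 4 (0.0616). Elovl6 was lower by 0.25 on the log2 scale and missed the threshold, but was called without KI replicate 3 (adjusted p = 0.0202), with libraries scaled to their totals (0.0241) and in the fit of all 64 libraries (0.00850). In these libraries the 10 oligodendrocyte markers had a median log2 fold change of -0.27, with 1 of 10 lower (0 without WT replicate 2) and a summed level between 93765 and 122802 in KI and between 113537 and 170789 normalized counts in WT. Of the other lists, 2 of 7 neuronal markers rose, with summed levels of 236368 to 258107 in KI and 189444 to 215130 in WT. Of 7 astrocyte markers 1 rose and 2 fell (1 and 1 without WT replicate 2). The 1 that rose was Gfap (log2 fold change 1.52, adjusted p = 0.00148 in limma's test, and 1.42 without WT replicate 2). Among the rest, 1 of 6 microglial and 1 of 3 oligodendrocyte precursor markers rose. Of all genes, 12.2% were called higher and 10% lower, and 9.01% and 6.85% without WT replicate 2. The part of these markers in the Fads2 and Elovl1 results was not tested.

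In KI hippocampus, PWK 14 was the earliest age with called members. Acly and Elovl5 rose, against 7.64% of all genes higher, and no member fell, against 7.95% lower, where 15.6% of all genes were called in either direction. Acly, Scd2 and Elovl5 did not overlap between genotypes, a state found in 23.8% of all genes. Acly held 4451, 5197, 4727 and 4310 normalized counts in WT and 6285, 6147, 6154 and 5778 in KI hippocampus. The lowest KI library lay well above the highest WT library, and the log2 fold change was 0.39 (95% confidence interval 0.23 to 0.54), a fold of 1.31 with an adjusted p of 0.00614. This was the smallest adjusted p of the 10 members at PWK 14, and the call was kept in all 6 other settings and without any 1 library. Without KI replicate 1, which stood apart in its glial markers, the log2 fold change of Acly was 0.37 (adjusted p = 0.00730).

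Elovl5 held 2127, 2088, 2064 and 2144 normalized counts in WT and 3048, 2423, 2403 and 2502 in KI hippocampus at PWK 14. All KI libraries lay above the WT range, and replicate 1 lay above the other KI libraries. The log2 fold change was 0.29 (95% confidence interval 0.12 to 0.47, adjusted p = 0.0342), and 0.21 without KI replicate 1 (adjusted p = 0.0191). The call was lost without any 1 of the WT libraries, replicates 1 to 4, with adjusted p-values of 0.0844, 0.0877, 0.0780 and 0.0758, with libraries scaled to their totals (0.0612) and with the replicate block (0.0605). Scd2 held 49789, 45482, 47133 and 45933 normalized counts in WT and 57702, 53416, 54936 and 55442 in KI hippocampus. Its groups did not overlap, with a log2 fold change of 0.23 (95% confidence interval 0.07 to 0.39), but the adjusted p of 0.0528 missed the threshold. Without KI replicate 1 it was 0.0427, with libraries scaled to their totals 0.0437, with a correction for GC content and length 0.0413, and in the fit of all 64 libraries 9.34e-05. Scd1 and Elovl6 gave log2 fold changes of 0.18 and -0.18 with overlapping groups, and Acaca, Fasn, Fads1, Fads2 and Elovl1 lay between -0.07 and 0.02. Without KI replicate 1, Elovl6 was at -0.085, Fasn at -0.12, Fads2 at -0.10, Elovl1 at -0.14 and Scd1 at 0.22 on the log2 scale, and none of these was called.

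At PWK 28, Acly and Scd2 rose in KI hippocampus, against 8.92% of all genes higher, and Elovl6 fell, against 6.91% lower, where 15.8% of all genes were called in either direction. Acly, Scd2, Fads2 and Elovl6 did not overlap between genotypes, beside 21.5% of all genes. Scd2 held 43055, 45379, 42785 and 42507 normalized counts in WT and 56878, 49708, 53263 and 51232 in KI hippocampus. No KI library came near the WT range, and the log2 fold change was 0.28 (95% confidence interval 0.17 to 0.39), a fold of 1.21 with an adjusted p of 0.00323. The call was kept in all 6 other settings and without any 1 library, with adjusted p-values up to 0.0149. Fads2 was also higher in every KI library, at 5747 ± 150.4 against 5431 ± 121 normalized counts (SD, n = 4), but its log2 fold change of 0.08 was not called (adjusted p = 0.185).

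Acly held 4925, 4822, 5051 and 4894 normalized counts in WT and 6071, 5219, 5645 and 5401 in KI hippocampus at PWK 28. The groups did not overlap, and the log2 fold change was 0.18 (95% confidence interval 0.07 to 0.29, adjusted p = 0.0323). The call was lost with libraries scaled to their totals (adjusted p = 0.0913) and without KI replicate 1 (0.0681) or 3 (0.0670) or WT replicate 1 (0.0802), 2 (0.0851) or 4 (0.0798). Elovl6 held 1665, 1789, 1613 and 1947 normalized counts in WT and 1414, 1461, 1586 and 1267 in KI hippocampus. The highest KI library lay just under the lowest WT library, and the log2 fold change was -0.29 (95% confidence interval -0.47 to -0.12, adjusted p = 0.0276). This call was lost without KI replicate 1 (adjusted p = 0.0593) or 4 (0.0578) or WT replicate 2 (0.0690) or 4 (0.0805), and with the replicate block (0.0679). Scd1 differed by 0.25 on the log2 scale and was not called, with KI libraries from 4796 to 6588 and WT libraries from 4471 to 5041 normalized counts, but was called without KI replicate 2 (adjusted p = 0.0154) and in the fit of all 64 libraries (0.0364). Elovl5 differed by 0.16 and was called only without KI replicate 3 (adjusted p = 0.0335).

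The synthesis genes that follow Acly were not called. In hippocampus the log2 fold change of Fasn was -0.06 at PWK 14 and -0.07 at PWK 28, and that of Acaca 0.02 and -0.04. Without KI replicate 1 the PWK 14 values of Fasn and Acaca were -0.12 and -0.028. The 95% confidence interval of Fasn at PWK 28 was -0.25 to 0.11, and that of Acaca -0.20 to 0.12.

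Some astrocyte markers were called higher in KI hippocampus at PWK 14 and 28, and some microglial markers at PWK 28. Of all genes, 7.64% were called higher and 7.95% lower at PWK 14, and 8.92% and 6.91% at PWK 28. At PWK 14, 2 of 7 astrocyte markers rose and their summed level lay between 158032 and 185631 normalized counts in WT and between 229885 and 325641 in KI libraries, and at PWK 28, 4 of 7 rose, with sums of 157775 to 168697 and 217447 to 251123. Gfap, the most used marker of reactive astrocytes, rose by a log2 fold change of 2.75 at PWK 14 and 2.00 at PWK 28. Without KI replicate 1 the PWK 14 value of Gfap was 2.36 (adjusted p = 3.64e-06 in limma's test). In that fit 4 of 7 astrocyte, 1 of 6 microglial and 2 of 7 neuronal markers were called higher, beside 8.98% of all genes. Of 6 microglial markers none was called at PWK 14 and 4 rose at PWK 28, where their summed level lay between 7574 and 8698 in WT and between 9664 and 10581 in KI libraries. Of 10 oligodendrocyte markers 1 rose at PWK 14 and 2 at PWK 28, and of 7 neuronal markers 1 rose and 1 fell at PWK 14 and 3 rose and 1 fell at PWK 28. Of 3 oligodendrocyte precursor markers 1 rose at PWK 28, and none of 3 endothelial or 3 choroid plexus markers was called at either age, though the summed choroid plexus level ran from 1768 to 101783 among hippocampal libraries at PWK 14. No defining marker of these cell types was at 0 in any group. Across the 64 libraries, after each group's mean was taken out, the level of Elovl5 went with the astrocyte (Pearson's r = 0.80), microglial (0.50) and endothelial markers (0.45), and so did Fads2 (0.62, 0.45 and 0.41). Elovl6 went against microglial (-0.56), endothelial (-0.56) and astrocyte markers (-0.46), and Acly was close to 0 with astrocyte markers (-0.08). Without the 2 libraries that stood apart, in the same order, the r of Elovl5 was 0.77, 0.27 and 0.30, that of Fads2 0.55, 0.29 and 0.28, and that of Elovl6 -0.41, -0.46 and -0.28, while Acly was at -0.22 with astrocyte and -0.42 with microglial markers, where all libraries gave -0.15 for the latter. Fads1 gave 0.20 with astrocyte and 0.05 with microglial markers over all libraries, and 0.57 and 0.46 without those 2. With astrocyte markers, over all libraries and without those 2, Elovl1 gave 0.41 and 0.33 and Scd2 0.39 and 0.38. Scd1 gave 0.16 and 0.39, Fasn 0.32 and 0.27, and Acaca 0.10 and -0.09. With oligodendrocyte markers Scd1 gave 0.48 and 0.47, and Acaca -0.38 and -0.38. These are descriptions over libraries that share their scaling, and the part of these cells in the members' results was not tested.

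**Figure D4:**
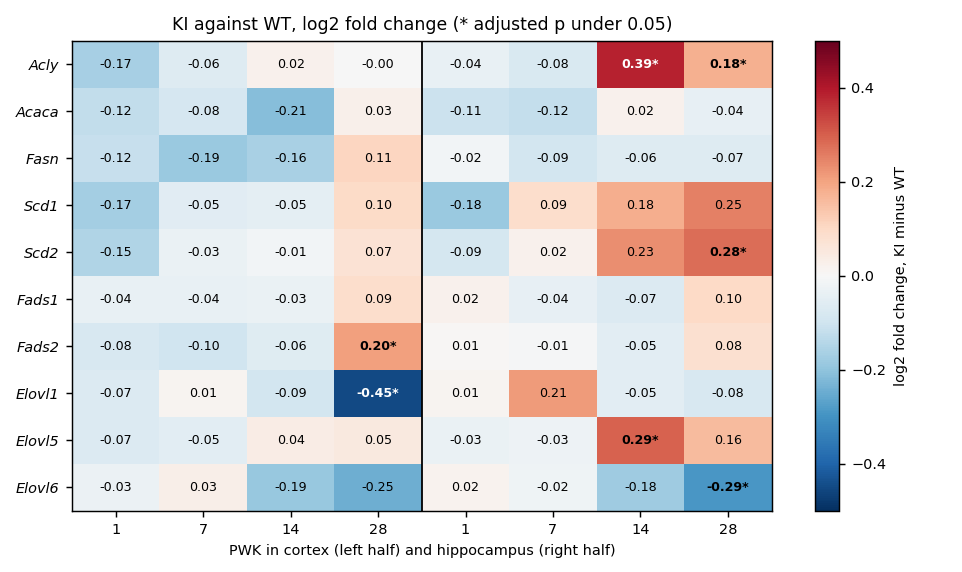
Log2 fold change of KI against WT for each member (rows) in cortex (left) and hippocampus (right) at PWK 1, 7, 14 and 28, with n = 4 libraries per group, red for higher and blue for lower in KI, and an asterisk where the adjusted p was under 0.05. The called values are Fads2 (0.20) and Elovl1 (-0.45) in cortex at PWK 28, Acly (0.39) and Elovl5 (0.29) in hippocampus at PWK 14, and Acly (0.18), Scd2 (0.28) and Elovl6 (-0.29) in hippocampus at PWK 28.

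Whether the genotype difference itself differed between regions or ages was tested with interaction terms. At PWK 14, Acly alone was called among the members, where 2.85% of all genes were called, with a difference of 0.39 on the log2 scale in hippocampus and 0.02 in cortex (interaction 0.36, 95% confidence interval 0.19 to 0.54, adjusted p = 0.0308). This call was lost with libraries scaled to their totals (adjusted p = 0.0608) and without 8 of the 16 libraries in turn. Those were cortical KI replicates 3 (0.0632) and 4 (0.0591), cortical WT replicates 1 (0.0674), 2 (0.0571) and 4 (0.0564), hippocampal KI replicate 3 (0.0513), and hippocampal WT replicates 1 (0.0721) and 4 (0.0616). At PWK 28 no member was called by limma, where 4.57% of all genes were called, and 4 members passed an unadjusted p under 0.05, beside 18.6% of all genes. The Elovl1 interaction of 0.37 had a 95% confidence interval of 0.03 to 0.72 and an adjusted p of 0.225, so the fall in cortex was not shown to differ from hippocampus.

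Between PWK 14 and PWK 28 no member was called in either region by limma, and 0% of all genes were called in cortex and 0% in hippocampus. At an unadjusted p under 0.05, 4 members passed in cortex and 2 in hippocampus, beside 15.1% and 12.4% of all genes. The difference of Fads2 between genotypes in cortex was 0.27 larger on the log2 scale at PWK 28 (95% confidence interval 0.09 to 0.44, adjusted p = 0.165), and it was called in the fit of all 64 libraries (adjusted p = 0.0107). That of Acly in hippocampus was smaller at PWK 28 by 0.21 (95% confidence interval of the change -0.38 to -0.03, adjusted p = 0.325). The same fit of all 64 libraries called the region interaction of Scd2 at PWK 14 (0.25, adjusted p = 0.0102) and PWK 28 (0.21, adjusted p = 0.0476).

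The wider pathway was read from a list of 44 further genes, of which 43 were in the table. In KI against WT mice none of them was called by limma at PWK 1 or PWK 7. Between 1 and 6 of the 43 passed an unadjusted p under 0.05, beside 5.27% to 8.05% of all genes. In cortex, 2 rose and none fell at PWK 14, where 5.18% of all genes were called, and 8 rose and 1 fell at PWK 28, where 12.2% of all genes were higher and 10% lower. Without WT replicate 2 the PWK 28 counts were 4 and 0, beside 9.01% and 6.85% of all genes. In hippocampus, 6 rose and 1 fell at PWK 14, beside 7.64% of all genes higher and 7.95% lower, and 8 rose and 2 fell without KI replicate 1, beside 8.98% and 8.43%. At PWK 28, 7 rose and 1 fell, beside 8.92% and 6.91%. The list's median log2 fold change was 0.06 for cortex at PWK 28, and 0.09 and 0.03 for hippocampus at PWK 14 and 28, beside -0.0034, 0.0060 and 0.0037 for all genes.

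Cyb5r3, the reductase that feeds electrons to cytochrome b5 for the desaturases, rose in all 4 late comparisons. Its cortical log2 fold change was 0.36 ± 0.07 (SE) at PWK 14 and 0.75 ± 0.11 at PWK 28, and its hippocampal one 0.79 ± 0.15 and 0.51 ± 0.09. In hippocampus at PWK 14 it held 1624, 1665, 1595 and 1640 normalized counts in WT and 4063, 2470, 2624 and 2414 in KI libraries, with replicate 1 far above the other KI libraries. Without that library its log2 fold change was 0.62 (adjusted p = 0.000251). The cortical call at PWK 14 was lost without KI replicate 2 (adjusted p = 0.0557) or WT replicate 1 (0.0679) or 3 (0.0510), and that at PWK 28 stood at 0.75 without WT replicate 2 (adjusted p = 0.00488). Scd4, a stearoyl-CoA desaturase expressed at a low level here, rose from 9.53, 10.7, 18.7 and 9.14 in WT to 119, 51.4, 60.9 and 55.8 normalized counts in KI hippocampus at PWK 14 (log2 fold change 2.45 ± 0.34 SE, adjusted p = 0.00241), and by a log2 fold change of 0.91 ± 0.23 at PWK 28. Without KI replicate 1, the highest library, the PWK 14 value was 2.18 (adjusted p = 0.00154). The PWK 28 call of Scd4 was lost without KI replicate 1 (adjusted p = 0.0620) or 4 (0.0502) or WT replicate 1 (0.0629), with the replicate block (0.0542) and in the fit of all 64 libraries (0.0832). As Scd4 lies in a family of near-identical desaturase genes with Scd1 and Scd2, reads shared with an abundant member could not be checked in this table.

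Insig1, which holds the sterol regulatory element-binding proteins in the endoplasmic reticulum and is itself their target, rose in hippocampus at PWK 14 (log2 fold change 0.56 ± 0.06 SE, adjusted p = 0.00115) and in cortex at PWK 28 (0.48 ± 0.14, adjusted p = 0.0319). Its 4 hippocampal KI libraries at PWK 14 lay between 1935 and 2134 and the WT libraries between 1310 and 1487 normalized counts, whereas at PWK 28 they ran from 1319 to 2564 against 1344 to 1414. The hippocampal value was 0.55 without KI replicate 1 (adjusted p = 0.000995). The cortical call of Insig1 was lost without KI replicate 1 (adjusted p = 0.0712) or 3 (0.0866) or any WT library, replicates 1 to 4 (0.0691, 0.0708, 0.0586 and 0.0828). Me1, a malic enzyme that makes NADPH for synthesis, rose in cortex at PWK 28 by a log2 fold change of 0.42 ± 0.07, and by 0.41 without WT replicate 2 (adjusted p = 0.0129). Acsl1, which activates long-chain fatty acids, rose in cortex at PWK 14 (0.29 ± 0.07), and Hacd4, a dehydratase of the elongation cycle, rose in hippocampus at PWK 28 (0.76 ± 0.19). The genes that fell were Cers2, the ceramide synthase for very long chains, in cortex at PWK 28 (-0.29 ± 0.09), Fads6 in hippocampus at PWK 14 (-0.49 ± 0.10) and Hacd3, another dehydratase, in hippocampus at PWK 28 (-0.14 ± 0.04). Fads6 was at -0.44 without KI replicate 1 (adjusted p = 0.0170). The Acsl1 call was lost without KI replicate 2 (adjusted p = 0.0930) or WT replicate 1 (0.0804), 2 (0.0659), 3 (0.0947) or 4 (0.0791), and the Hacd4 call without WT replicate 1 (0.0595) or 2 (0.0510). The Cers2 call was lost without KI replicate 1 (adjusted p = 0.0779), 2 (0.0587) or 4 (0.0999) or WT replicate 1 (0.112), 2 (0.0914) or 4 (0.0645), and with the replicate block (0.0638). The Hacd3 call, at an adjusted p of 0.0490, was kept only without KI replicate 2, and was lost without KI replicate 1 (0.104), 3 (0.0779) or 4 (0.0954), without WT replicate 1 (0.0764), 2 (0.128), 3 (0.0548) or 4 (0.136), and with the replicate block (0.0834).

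In WT mice between PWK 1 and PWK 7, 20 of the 43 pathway genes rose and 17 fell in cortex, where 65.3% of all genes were called, and 20 rose and 14 fell in hippocampus, where 61.3% were. Between PWK 7 and 28, 4 rose and 11 fell in cortex, beside 10.9% of all genes higher and 11.4% lower, and 3 rose and 8 fell in hippocampus, beside 6.35% and 8.38%. Between regions, from the youngest to the oldest age, 5, 7, 7 and 10 were higher in hippocampus and 10, 10, 8 and 10 were lower, where 34.7%, 40.8%, 34.6% and 37.8% of all genes were called.

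Ratios within the desaturase pairs put these changes on a scale of length. Per kb of the longest transcript, Scd2 exceeded Scd1 by a factor of 9.44 ± 0.55 (SD, n = 4) in WT cortex and 11.3 ± 0.48 in WT hippocampus at PWK 1, and by 6.14 ± 0.19 and 8.00 ± 0.32 at PWK 7. The ratio of Fads2 to Fads1 was 1.92 ± 0.09 in WT cortex and 2.18 ± 0.08 in WT hippocampus at PWK 1, and 0.77 ± 0.02 and 1.02 ± 0.04 at PWK 7. Fads2 exceeded Fads1 in both regions at PWK 1, but its place later depended on the length used. In WT cortex at PWK 7, Fads2 and Fads1 averaged 1454 and 1888 normalized counts per kb of the longest transcript, but 1390 and 1358 per kb of all exons. The ratios of KI and WT libraries overlapped for both pairs at every age in both regions. The widest gap between genotypes for Fads2 to Fads1 was in cortex at PWK 28, with 0.79 to 0.82 in WT and 0.80 to 0.93 in KI libraries, which overlapped.

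**Figure D5:**
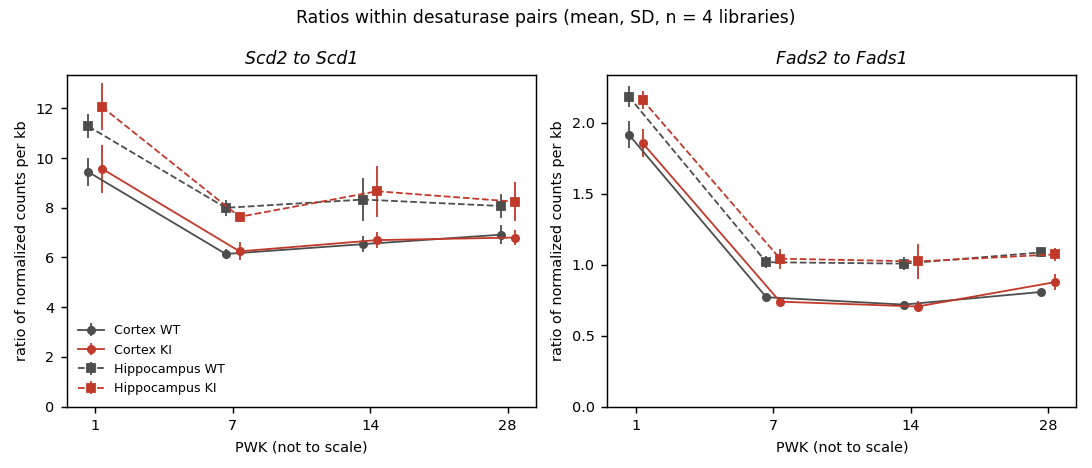
Ratio of normalized counts per kb of the longest transcript for Scd2 to Scd1 (left) and Fads2 to Fads1 (right) by age, as mean and SD of 4 libraries, in cortex (circles, solid lines) and hippocampus (squares, dashed lines) of WT (grey) and KI (red) mice. The Fads2 to Fads1 ratio goes from 1.92 and 2.18 at PWK 1 to 0.77 and 1.02 at PWK 7 in WT cortex and hippocampus.

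The members did not vary as 1 block from library to library. With each group's mean taken out, the 45 pairs of members had a median Pearson's r of 0.11 over the 64 libraries, with 3 pairs over 0.5 and 15 below 0. The 3 pairs were Scd1 with Scd2 (0.63), Scd1 with Fads1 (0.58) and Fads2 with Elovl5 (0.51). Acly and Fasn, which act in the same route, gave 0.28 and Acaca and Fasn 0.04. Without the 2 libraries that stood apart the median was 0.067, and 2 pairs, Scd1 with Scd2 (0.68) and Scd1 with Fads1 (0.56), were over 0.5. Over the means of the 16 groups, which share their ages, Acaca and Fasn gave 0.97, Fads2 and Elovl6 0.93, and Scd1 and Fads2 -0.93.

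The genes whose 16 group means on the log2 scale were most like those of a member were searched among 12809 other genes with a mean of at least 100 normalized counts. Fasn was nearest to Aacs (Pearson's r = 0.99), which activates acetoacetate for lipid synthesis, and then to Wdr5 and Brd3. Acaca was nearest to Gsk3b, Kif21b and Pcdha7, Acly to Retreg1, Tacr1 and Cdo1, and Elovl6 to Irs1, Robo1 and Tnrc18, with a highest r of 0.99, 0.96 and 0.99. Fads2 was nearest to Rimkla, Dchs1 and Znrf2 (0.99), Fads1 to Thy1, Srd5a3 and Mfsd4b4 (0.92), Scd1 to Hrh3, Tmod1 and Ppp1r9a (0.97), and Scd2 to Spg21, Mapkapk2 and Pros1 (0.84). Elovl5 was nearest to Ctnnb1, Fndc3b and Lyn (0.96), and Elovl1 to Scly, Tob1 and Gjc3 (0.99), the last of which encodes a connexin of oligodendrocytes. These are descriptions over groups that share ages, regions and animals.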

How the data were processed

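RNA of 64 libraries, from frontal cortex and hippocampus, had been sequenced with a stranded kit, an mRNA kit per the labels and a total RNA kit in the study's methods. The authors deposited normalized counts per gene, made from Salmon estimates scaled by DESeq2, a signal that holds no raw counts (Salmon 0.11.2, DESeq2 1.19.11 and R 3.6.0 in the submitters' processing notes, build GRCm38). Library totals were 29.2 to 32.6 M, and depth was estimated from the value of 1 read. Low values were not whole reads (37.3% within 0.1 read, 20% by chance), so no count test was run. Of 18432 gene IDs, 18420 matched GENCODE vM21.

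Values were log2-transformed with a pseudocount of 1, genes with a mean under 1 in the libraries of a comparison were left out, and limma 3.58.1 (R 4.3.3) with a mean-variance trend was fitted to the groups of each comparison. P-values were two-sided and adjusted by Benjamini-Hochberg over all genes tested, and called means under 0.05. The scripts were tested on simulated data. The members and lists were chosen with earlier results of these data known. In the wider pathway, up to 3 called genes per direction and genotype comparison with the largest fold change were named, and for each member the 3 genes with the most similar group means. Marker lists were for oligodendrocytes and their precursors, astrocytes, microglia, neurons, endothelium, choroid plexus and the identity of each region. Alternatives were a pseudocount of 10, no filter, scaling to library totals, 1 fit of all 64 libraries, a replicate block, a correction for GC content and length, and leaving out each library. Marker and pathway lists and correlations were also taken without the 2 libraries that stood apart, which was chosen after seeing the data. Both regions came from each mouse, but replicate numbers are not said to mark mice. Between genotypes or ages the replicate block joined libraries of different mice by their number alone. Same-numbered libraries deviated together in all 4 pairs between WT regions at PWK 1 (correlations 0.102 to 0.256 over 12819 genes). They also did between KI regions at PWK 28 (0.239 to 0.443) and KI hippocampus at PWK 14 and 28 (0.111 to 0.186). In each of the other 21 sets of groups at least 1 pair lay below 0.102. Among those, KI regions had mean correlations of 0.212 at PWK 1 (0.091 to 0.317) and 0.219 at PWK 14 (-0.027 to 0.462).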

Additional observations from a re-analysis of the deposited data

Results flagged for a closer look

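In 9 of the 160 groups of 4 libraries of the members, 1 library lay far from the other 3 by Dixon's test, and chance gives about 1 in 20. Fasn was at 11707 normalized counts in WT hippocampus PWK 14 replicate 4, against 9667 to 9862 in the other 3, and at 10891 in KI replicate 1 of the same age and region, against 9266 to 9490. Fads1 was at 6929 in KI cortex PWK 14 replicate 1 (others 6359 to 6450) and at 5642 in WT hippocampus PWK 1 replicate 3 (others 5380 to 5413). Fads2 was at 5971 in KI hippocampus PWK 28 replicate 1 (others 5651 to 5692).

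Elovl5 was the member picked out most often. It was at 2202 in WT cortex PWK 7 replicate 2 (others 2006 to 2030), at 2177 in KI cortex PWK 7 replicate 2 (others 1925 to 1940), at 2386 in WT cortex PWK 28 replicate 1 (others 2135 to 2149) and at 3048 in KI hippocampus PWK 14 replicate 1 (others 2403 to 2502). The last of these is the library with the highest summed astrocyte and microglial markers of its group.

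The genotype difference of Acly differed between hippocampus and cortex at PWK 14 by 0.36 on the log2 scale, by the interaction term of limma's test (adjusted p = 0.0308). As given above, this call was lost with libraries scaled to their totals and without 8 of the 16 libraries in turn (adjusted p up to 0.0721).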

How the results depend on the processing

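Of 3000 values of single members under alternative settings, 2923 kept their side of the threshold, 54 lost a call, 21 gained one and 2 changed sign and were then called. The last were Scd2 (0.086) and Fads1 (0.095) in WT hippocampus against cortex at PWK 1 with libraries scaled to their totals, a scaling that moved the median of all genes by up to 0.0965 (log2). Among the 2923, 110 values that were not called changed sign. Of 108 counts of called members under settings other than leaving out a library, 102 stayed within 1.5 times the reported count. In 1 fit of all 64 libraries, 1 member was called between genotypes in cortex at PWK 14, 2 in the region interaction at PWK 14, 1 in that at PWK 28 and 1 in the age interaction in cortex. Scaling to totals left 0 in the region interaction at PWK 14, where limma had called Acly with the deposited scaling (adjusted p = 0.0308, and 0.0608 when scaled to totals). At an unadjusted p under 0.05, 2 members had passed there with the deposited scaling, beside 17.7% of all genes. Leaving out each library in turn gave 1 to 2 members in KI against WT cortex at PWK 28, 1 to 3 in hippocampus at PWK 14, 1 to 4 at PWK 28, 0 to 1 in the region interaction at PWK 14, 3 to 5 in WT cortex from PWK 7 to 28 and 1 to 2 in WT hippocampus. For the named genes of the wider pathway and Cyfip2, 270 of 308 such values kept direction and side of the threshold, 36 lost a call, 2 gained one and none reversed. The counts of members called in this paragraph stand without the share of all genes called under the same setting. They cannot tell a change of the members from a change of the whole table. The causes were not tested.

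With the replicate block, 1 member (Acly) was called in KI hippocampus at PWK 14, where 1788 of all genes were called, against 2870 without the block. The calls of Elovl5 there (adjusted p = 0.0605), of Elovl6 in KI hippocampus at PWK 28 (0.0679) and of Acly in WT cortex from PWK 7 to 28 (0.0552) were lost. Genes called of all went from 2911 to 2388 in KI hippocampus at PWK 28 and from 4084 to 3328 in WT cortex from PWK 7 to 28. The block also lost the calls of Cers2 in cortex (0.0638) and Scd4 (0.0542) and Hacd3 (0.0834) in hippocampus at PWK 28 and changed no other call of a member or named gene. In cortex at PWK 28 it left 3513 of all genes called, against 4081. Between WT regions at PWK 1, 7 members stayed called, where 6591 of all genes were called. KI and WT libraries of 1 number come from different mice. Their mean correlation was 0.044 in cortex at PWK 28, and 0.021 and 0.064 in hippocampus at PWK 14 and 28.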
